A study of Homo sapiens with 8 samples.

Results

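Messenger RNA of 10 genes of the hypoxia response was compared between control and HNRNPC-depleted KYSE150 cells. The genes are the oxygen-regulated factors HIF1A and EPAS1, the oxygen sensors EGLN1 and EGLN3, and the hypoxia-inducible target genes VEGFA, ADM, CA9, NDRG1, BNIP3 and BNIP3L. They were chosen by name, with earlier results of these data known, and all 10 were found among the 16082 genes of the deposited count table. KYSE150 is an established human esophageal squamous carcinoma line. The control group holds 4 samples with genotype Control, and the other holds 4 samples with genotype ShHNRNPC, in which a short hairpin RNA targets HNRNPC, a nuclear protein that binds nascent transcripts and shapes their splicing. Treatment is given as none for all 8 samples. The hairpin sequence, the kind of control vector, whether the cells were clones or pools, and the oxygen level of the cultures were not stated in the labels.

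The proteins encoded by HIF1A and EPAS1, named HIF-1 alpha and HIF-2 alpha, are made continuously, and in oxygenated cells the prolyl hydroxylases encoded by EGLN genes mark them for destruction through the VHL ubiquitin ligase. When oxygen is scarce they persist, pair with ARNT and bind short DNA sites called hypoxia response elements, from which target genes are switched on. This control acts mainly on the proteins, so RNA levels of the factors do not report their activity. Several of the targets also answer to other signals. In squamous carcinomas the targets are widely used as markers of poorly oxygenated tumour regions.

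The core of a hypoxia response element is ACGTG or GCGTG, on either strand. Promoter sequences are shown for 5 of the genes because they show where such cores lie in genes that rose, fell or hardly moved. NDRG1 and VEGFA, the targets with the largest falls among the genes compared, are not among them. Each line gives the 150 bases before the RefSeq transcript start, 5′ to 3′ on the gene's strand, with cores of either strand in capitals. They are RefSeq sequences of GRCh38.p14.
CA9: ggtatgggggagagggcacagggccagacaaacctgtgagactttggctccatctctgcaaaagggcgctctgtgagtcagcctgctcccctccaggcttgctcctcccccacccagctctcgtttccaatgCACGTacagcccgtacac
ADM: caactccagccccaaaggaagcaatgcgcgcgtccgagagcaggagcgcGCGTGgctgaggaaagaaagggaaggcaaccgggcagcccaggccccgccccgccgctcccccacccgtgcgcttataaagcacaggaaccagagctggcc
EGLN1: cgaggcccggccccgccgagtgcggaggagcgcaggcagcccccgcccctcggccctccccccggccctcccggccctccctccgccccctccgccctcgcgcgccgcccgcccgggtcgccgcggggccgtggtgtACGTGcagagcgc
BNIP3: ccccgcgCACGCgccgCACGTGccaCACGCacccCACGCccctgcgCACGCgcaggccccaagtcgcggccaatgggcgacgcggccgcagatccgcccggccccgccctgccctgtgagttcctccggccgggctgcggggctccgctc
EPAS1: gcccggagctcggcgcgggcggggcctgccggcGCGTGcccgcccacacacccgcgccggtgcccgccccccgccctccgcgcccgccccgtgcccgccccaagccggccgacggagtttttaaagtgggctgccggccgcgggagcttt

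These windows lie at chr9:35673778-35673927 on the plus strand for CA9, chr11:10304923-10305072 on the plus strand for ADM, chr1:231422288-231422437 on the minus strand for EGLN1, chr10:131981924-131982073 on the minus strand for BNIP3 and chr2:46297257-46297406 on the plus strand for EPAS1. In CA9 the only core is an ACGTG on the minus strand whose first listed base is 18 bases before the start, and in EGLN1 it is an ACGTG 13 bases before. ADM has a GCGTG 101 bases before its start and EPAS1 a GCGTG 117 bases before. BNIP3 holds 6 cores between 143 and 104 bases before its start, 2 of which overlap in a run that reads the same on both strands. Over the wider window from 250 bases before to 50 after the start, HIF1A had 1 core, 204 bases before, and EGLN3 had 0. Another HIF1A promoter, with its start at 61697712, had 0 cores. At least 1 core was found in 48.4% of all 35116 RefSeq promoter windows of that length, and at least 3 in 10.1%. A match of these letters is a description and does not show that a factor binds there. For the genes shown, these RefSeq starts differ from the ends of the GENCODE spans given below. The windows of EPAS1, ADM and EGLN1 lie inside the GENCODE spans of these genes, and those of CA9 and BNIP3 lie partly inside.

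Library totals ranged from 28323403 to 34913500 counts, and 13855 to 14223 genes were detected per library. HNRNPC itself dropped from 587 ± 12.5 to 33.9 ± 1.81 CPM (SD, n = 4; edgeR adjusted p = 5.72e-75), where CPM is the count scaled by library size and TMM factor. Of the squamous epithelial markers, KRT5 (565 CPM), TP63 (176 CPM) and DSG3 (108 CPM) were well detected in control cells, while KRT13 and SOX2 were at 0.0692 and 0.0534 CPM. These markers moved with the groups: of 10 listed and 8 tested, KRT5 (0.99 on the log2 scale), CDH1 (0.69) and SFN (0.10) rose, KRT6A (-1.62), KRT14 (-0.77), DSG3 (-0.56) and TP63 (-0.45) fell, and their sum was 1564 to 1592 CPM in control and 2242 to 2288 CPM in shHNRNPC libraries. Summed endothelial markers were low, at 3.72 to 4.42 CPM in control and 2.14 to 3.42 CPM in shHNRNPC libraries, with VWF (-1.15) and ESAM (-0.64) lower. Summed fibroblast markers were 3.65 to 3.88 CPM in control and 8.42 to 9.56 CPM in shHNRNPC libraries, with COL1A1 (1.27) and LUM (1.58) higher. Summed leukocyte markers were higher, at 215 to 229 CPM in control and 105 to 109 CPM in shHNRNPC libraries, and nearly all of this was CD68, a gene with 85.8% of its exon bases shared with another gene; PTPRC, CD3E, CD3D and MS4A1 were not analysed here. The part of these markers in the results was not tested. The labels do not state separate cultures, and p-values therefore cover only variation among these 8 samples, which could be technical. In bulk RNA, fewer cells that express a gene and less RNA per cell cannot be told apart.

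Of the 10 genes, 9 had enough counts to be tested, and all 9 differed between the groups: NDRG1, VEGFA, EPAS1, BNIP3, BNIP3L and HIF1A were lower after HNRNPC knockdown, and ADM, CA9 and EGLN1 were higher (edgeR's quasi-likelihood test, with Benjamini-Hochberg adjustment across the table and calls at 0.05). This count has to be read against a wide background, since 77.3% of the 12001 genes tested were called, 38.7% higher and 38.6% lower. The sizes were uneven. NDRG1, VEGFA and EPAS1 fell and ADM rose by at least 2-fold, a size reached by 8.42% of genes tested, whereas HIF1A, EGLN1, BNIP3, BNIP3L and CA9 changed by less than 1.5-fold. CPM ranges of the 2 groups were apart for 8 of the 9 genes, all but EGLN1, against 70.8% of genes tested. The median absolute log2 fold change was 0.51 over the 9 genes and 0.30 over all genes tested. Because the genes were chosen with earlier results of these data known, these comparisons with all genes tested are description only.

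**Figure D1:**
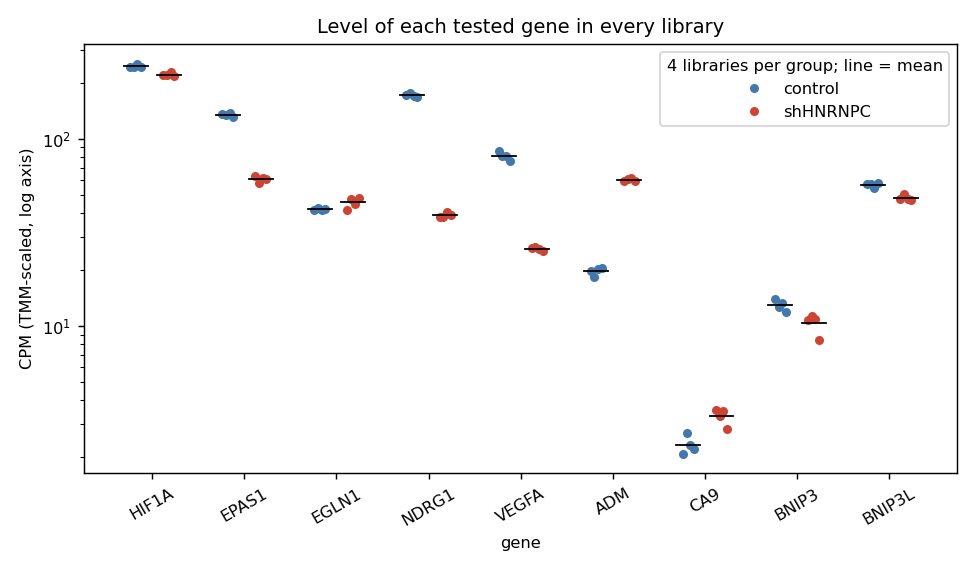
CPM of the 9 tested genes in each of the 4 control and 4 shHNRNPC libraries, on a log axis, with a line at each group mean. NDRG1, VEGFA and EPAS1 lie well below control after knockdown, ADM lies above, and the groups overlap only for EGLN1.

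HIF1A encodes the HIF-1 alpha subunit, expressed in most tissues. Its level was 243, 243, 253 and 244 CPM in control libraries 1 to 4 and 219, 220, 227 and 216 CPM in shHNRNPC libraries 1 to 4. Every knockdown library was lower than every control library, but by a small margin. This was a log2 fold change of -0.16 (SE 0.022; edgeR, adjusted p = 4.23e-09), which leaves 89.7% of the control mean. HIF1A lies on chromosome 14 from 61695513 to 61748259 (GENCODE release 29, GRCh38), and 5.14% of its exon bases overlap other genes, among them the antisense HIF1A-AS1.

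EPAS1 encodes HIF-2 alpha, the paralog with a more restricted distribution. Control libraries 1 to 4 held 136, 134, 137 and 131 CPM, and shHNRNPC libraries 1 to 4 held 63.3, 58.0, 61.6 and 61.0 CPM. The groups were far apart and the knockdown libraries agreed closely. The fit gave -1.14 on the log2 scale (SE 0.030; edgeR, adjusted p = 2.24e-42), leaving 45.4% of control. Of the 12001 genes tested, 475 had a larger fall. EPAS1 lies on chromosome 2 from 46293667 to 46386703, with no exon base shared with another annotated gene.

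Because both factors can compete for ARNT, their balance within a library was also followed, as the ratio of HIF1A to EPAS1 counts. This ratio does not depend on how libraries are scaled. It was 1.80, 1.82, 1.84 and 1.86 in the control libraries and 3.45, 3.80, 3.69 and 3.54 in the shHNRNPC libraries, so the groups were apart. On the log2 scale the mean went from 0.87 ± 0.023 (SD, n = 4) to 1.86 ± 0.061, a difference of 0.98. By exact two-sided permutation, p = 0.0286, which is the minimum over 70 assignments, and 0.0857 after adjustment over the 3 paralog pairs compared, the lowest that 1 such pair can reach. Both RNAs fell, EPAS1 (-1.14 on the log2 scale) more than HIF1A (-0.16), so the higher ratio is not a rise of HIF1A. ARNT, the shared partner, rose slightly, from 56.4 ± 1.22 to 61.3 ± 0.540 CPM (0.12 on the log2 scale, edgeR adjusted p = 0.00191). ARNT2 was at 1.08 and 1.15 CPM and did not pass the test (edgeR adjusted p = 0.778). HIF3A was too low to test, at 0.00741 and 0.00755 CPM.

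EGLN1 encodes PHD2, the main oxygen-sensing prolyl hydroxylase, and is itself a HIF target. It was at 41.9, 42.9, 41.5 and 42.0 CPM in control libraries 1 to 4 and at 41.8, 47.9, 44.9 and 48.3 CPM in shHNRNPC libraries 1 to 4. Replicate 1 of the knockdown group sat within the control range, and the other 3 were above it. On the log2 scale the change was 0.12 (SE 0.043; edgeR, adjusted p = 0.00829), while exact two-sided permutation of CPM returned p = 0.114. The call was lost when shHNRNPC replicates 2 and 3 were both left out (log2 fold change 0.10, edgeR adjusted p = 0.0822). EGLN1 lies on chromosome 1 from 231363751 to 231425044.

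EGLN3 encodes PHD3, in many cells one of the most hypoxia-responsive genes. It was practically undetected here: 0 counts in all 4 control libraries, 1 count in shHNRNPC replicate 1 and 0 in the other 3. A count of 0 allows up to 0.0887 to 0.0953 CPM in the control libraries (3 counts per library, counting error only), so no fold change is given. The planned ratio of EGLN1 to EGLN3 rests on that single count and carries no information (difference -0.34 on the log2 scale, exact two-sided permutation test p = 0.971, adjusted over 3 pairs 0.971). EGLN3 lies on chromosome 14 from 33924231 to 34462774.

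The rest of the oxygen-sensing pathway moved in both directions. Apart from EGLN1 and EGLN3, 10 sensor and degradation genes were tested, 5 were higher and 5 lower, and their median log2 fold change was 0.02 against -0.01 over all genes tested. With EGLN1 the counts were 6 and 5 and the median 0.12, which is EGLN1's own value. All genes tested split near evenly as well, with 38.7% called higher and 38.6% lower. EGLN2, the gene of the third prolyl hydroxylase PHD1, changed most, from 34.7 ± 1.83 to 52.2 ± 1.80 CPM (SD, n = 4; 0.59 on the log2 scale, edgeR adjusted p = 1.2e-19), though 30.6% of its exon bases overlap other genes. HIF1AN, the asparaginyl hydroxylase that blocks coactivator binding, rose from 110 ± 0.879 to 143 ± 4.69 CPM (0.38), and RBX1, a RING subunit of the VHL ligase, rose by 0.41. P4HTM, a membrane prolyl hydroxylase, fell by 0.52 on the log2 scale. VHL itself went from 111 to 99.5 CPM (-0.16, edgeR adjusted p = 9.67e-06).

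Among 8 coactivators and modulators of HIF, 3 were higher, 2 lower and 3 not called, with a median of 0.05. Of all genes tested, 77.3% were called, 38.7% higher and 38.6% lower. The chaperone HSP90AA1, which stabilises HIF-1 alpha, rose from 728 ± 5.11 to 1855 ± 16.0 CPM (1.35), and HSP90AB1 by 0.18. RACK1, which promotes oxygen-independent degradation of HIF-1 alpha, went from 3728 ± 84.7 to 2359 ± 21.5 CPM (-0.66). The acetyltransferase CREBBP rose by 0.21, while its paralog EP300 was at 91.0 and 94.3 CPM and did not pass (edgeR adjusted p = 0.11).

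**Figure D2:**
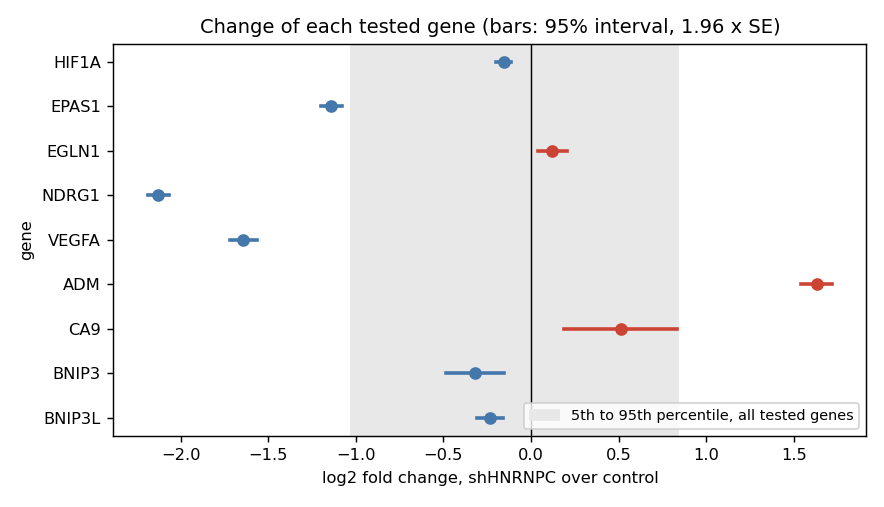
Log2 fold change of the 9 tested genes, shHNRNPC over control, with bars for the 95% interval. The grey band spans the 5th to 95th percentile of all genes tested, from -1.03 to 0.84: EPAS1, NDRG1, VEGFA and ADM lie outside it and the other genes inside.

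NDRG1, a stress-responsive cytoplasmic protein whose transcript is induced by hypoxia, showed the largest change of the 10. Control libraries 1 to 4 had 172, 176, 169 and 168 CPM, and shHNRNPC libraries 1 to 4 had 38.3, 38.3, 40.6 and 39.4 CPM. The knockdown libraries lay within a narrow band far below all controls. This was a log2 fold change of -2.13 (SE 0.031; edgeR, adjusted p = 3.46e-57), so that 22.9% of the control level was left, and 104 of the genes tested fell further. NDRG1 lies on chromosome 8 from 133237171 to 133302022, with no exon base shared with another gene. Its paralogs went the other way. NDRG3 rose from 139 ± 3.70 to 181 ± 2.56 CPM (SD, n = 4; 0.39, edgeR adjusted p = 1.85e-22), and NDRG4 rose from 0.573 ± 0.113 to 3.59 ± 0.798 CPM (2.64, edgeR adjusted p = 2.33e-16). NDRG2 was at 0.00739 CPM in control and at 0 in shHNRNPC samples. The summed CPM of the family was 309 to 312 in control libraries and 220 to 228 in shHNRNPC libraries.

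VEGFA, the principal angiogenic growth factor, fell as well. It was at 85.8, 80.7, 80.5 and 76.6 CPM in control libraries 1 to 4 and at 26.2, 26.3, 25.9 and 25.3 CPM in shHNRNPC libraries 1 to 4. The spread was wider in the control group than after knockdown, and the groups were well apart. The fit gave -1.64 on the log2 scale (SE 0.040; edgeR, adjusted p = 4.91e-44), leaving 32.1% of control, and 200 genes tested fell further. VEGFA lies on chromosome 6 from 43770184 to 43786487, with 1.30% of exon bases shared.

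Other VEGF family members were mixed. The lymphangiogenic ligand VEGFC fell from 21.9 ± 1.02 to 14.3 ± 1.01 CPM (SD, n = 4; -0.62), and the co-receptors NRP2 and NRP1 fell by 1.23 and 0.17 on the log2 scale. VEGFB, a ligand not induced by hypoxia in most cells, rose slightly from 38.8 to 42.3 CPM (0.12). VEGFD, named after its values were seen, was the other gene called higher, at 0.253 ± 0.0594 and 0.569 ± 0.322 CPM (1.13, edgeR adjusted p = 0.012). The receptor genes KDR, FLT1 and FLT4, typical of endothelium, were each below 0.1 CPM in both groups. In all, 7 of 10 listed genes were tested, 2 of them higher and 4 lower, with a median of -0.17. The shares over all genes tested were 38.7% higher and 38.6% lower.

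ADM, which encodes the vasodilator peptide adrenomedullin and is among the most consistently hypoxia-induced transcripts, rose. Control libraries 1 to 4 held 19.6, 18.2, 20.1 and 20.3 CPM, and shHNRNPC libraries 1 to 4 held 59.9, 60.8, 61.9 and 59.2 CPM. Each knockdown library was near 3 times the control level, with little spread. On the log2 scale the change was 1.63 (SE 0.045; edgeR, adjusted p = 4.34e-41), or 309% of control, and 98 genes tested rose further. ADM lies on chromosome 11 from 10304680 to 10307397, with no shared exon base. Its relative ADM2 did not follow: it fell from 1.57 ± 0.0650 to 0.215 ± 0.137 CPM (SD, n = 4; -2.85, edgeR adjusted p = 1.35e-11). The receptor gene CALCRL fell from 1.90 ± 0.439 to 1.18 ± 0.207 CPM (-0.67, edgeR adjusted p = 0.00625), a call lost without shHNRNPC replicates 1 and 4 (edgeR adjusted p = 0.0939). The receptor partner RAMP1 was at 0.0538 and 0.0571 CPM, too low to test.

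CA9, a cell-surface carbonic anhydrase and one of the most specific hypoxia markers in tumours, was expressed at a low level. It was at 2.07, 2.67, 2.31 and 2.19 CPM in control libraries 1 to 4 and at 3.55, 3.28, 3.53 and 2.82 CPM in shHNRNPC libraries 1 to 4, from 69 to 117 counts. The ranges were apart, with the gap between them small next to the spread in either group. This was a log2 fold change of 0.51 (SE 0.165; edgeR, adjusted p = 0.00434). CA9 lies on chromosome 9 from 35673856 to 35681159, and 38.5% of its exon bases are shared with ARHGEF39 on the other strand. ARHGEF39 rose from 9.79 ± 0.988 to 23.4 ± 2.37 CPM (SD, n = 4; 1.26, edgeR adjusted p = 1.07e-22). The strand setting of the counting is not given, so reads of the 2 genes cannot be told apart, and the part of ARHGEF39 in the CA9 value was not tested. CA12, the other tumour-associated surface enzyme, was too low to test, at 0.00781 and 0.0164 CPM. Of 5 carbonic anhydrases tested out of 15 listed, CA9 was the only one called higher, and 3 were lower: CA5B (-0.74, 22.3% of exon bases shared), CA13 (-1.05, at 0.772 and 0.368 CPM) and cytosolic CA2 (-0.11). Over all genes tested, 38.7% were called higher and 38.6% lower. The call of CA2 (edgeR adjusted p = 0.03) was lost under 7 alternatives, among them DESeq2, where its adjusted p was 0.0593.

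BNIP3 and BNIP3L encode related outer-membrane proteins that tether mitochondria to the autophagy machinery. BNIP3 was at 14.01, 12.6, 13.2 and 11.9 CPM in control libraries 1 to 4 and at 10.8, 11.3, 10.9 and 8.38 CPM in shHNRNPC libraries 1 to 4. All knockdown libraries were lower, with replicate 4 lowest. The fit gave -0.32 on the log2 scale (SE 0.085; edgeR, adjusted p = 0.000607). BNIP3 lies on chromosome 10 from 131966455 to 131982013. GENCODE lists 39 pseudogenes named after it, so its count is uncertain to the extent that reads were shared with them.

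BNIP3L, also called NIX, was at 57.7, 57.1, 54.9 and 58.1 CPM in control libraries 1 to 4 and at 47.7, 50.9, 47.8 and 46.9 CPM in shHNRNPC libraries 1 to 4. The groups were apart. On the log2 scale the change was -0.24 (SE 0.038; edgeR, adjusted p = 1.17e-07), leaving 84.8% of control. BNIP3L lies on chromosome 8 from 26382898 to 26505636, with 8.96% of exon bases shared. The ratio of BNIP3 to BNIP3L counts was 0.227 ± 0.0181 in control and 0.214 ± 0.0238 in shHNRNPC libraries (SD, n = 4), with overlapping ranges. The log2 difference was -0.09 (exact two-sided permutation test p = 0.514, adjusted over 3 pairs 0.771), and leaving out single libraries moved it between -0.14 and -0.01. A change in their balance was therefore not detectable, which does not show that the balance was equal.

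Of 16 mitophagy receptors and regulators, both BNIP3 genes included, 15 were tested, 6 were higher and 7 lower, with a median of 0.01. The share called, 86.7%, lies near the 77.3% of all genes tested. GABARAPL2 (-0.86) and the cargo receptor NBR1 (-0.75) fell. The related GABARAP (0.71, 55.7% of exon bases shared) and the cargo receptor SQSTM1, from 722 ± 12.4 to 1141 ± 1.51 CPM (SD, n = 4; 0.66, 22.0% shared), rose. The hypoxia-linked receptor FUNDC1 went from 10.4 to 14.2 CPM (0.45, edgeR adjusted p = 1.66e-06). PINK1 was at 29.4 and 29.7 CPM and did not pass the test (edgeR adjusted p = 0.826).

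Targets of the same pathway thus moved in opposite directions, and this was visible within each library. The ratio of ADM to VEGFA counts was 0.228, 0.225, 0.250 and 0.265 in control libraries 1 to 4 and 2.28, 2.31, 2.39 and 2.34 in shHNRNPC libraries 1 to 4. The ratio of ADM to NDRG1 counts went from between 0.103 and 0.121 to between 1.51 and 1.59. On the log2 scale the mean shifts were 3.27 and 3.76. ADM thus had fewer counts than either gene in every control library and more than either in every knockdown library. These pairs were picked because the genes moved apart, so the shifts are given without a test.

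**Figure D3:**
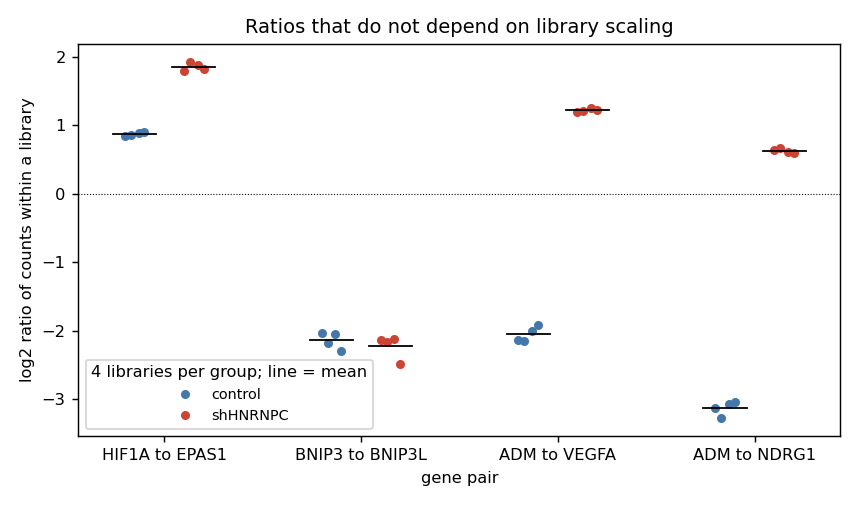
Log2 ratio of counts for 4 gene pairs in each of the 4 control and 4 shHNRNPC libraries, with a line at each group mean; 0 marks equal counts. ADM passes from below to above VEGFA and NDRG1, and the BNIP3 to BNIP3L ratio overlaps between groups. The HIF1A to EPAS1 ratio is higher after knockdown, where both RNAs fell and EPAS1 fell more.

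Levels can be compared between genes only per length. In CPM per kilobase of the longest coding transcript, the order in control cells was HIF1A (62.1 ± 1.20, SD, n = 4), NDRG1 (45.6 ± 0.936), EPAS1 (26.0 ± 0.520), VEGFA (22.9 ± 1.07), BNIP3L (15.8 ± 0.395), ADM (10.3 ± 0.520), EGLN1 (5.93 ± 0.0847), BNIP3 (4.52 ± 0.314) and CA9 (1.43 ± 0.159). After knockdown it was HIF1A (55.7 ± 1.26), ADM (32.0 ± 0.618), BNIP3L (13.4 ± 0.489), EPAS1 (11.8 ± 0.428), NDRG1 (10.4 ± 0.288), VEGFA (7.34 ± 0.131), EGLN1 (6.45 ± 0.426), BNIP3 (3.62 ± 0.469) and CA9 (2.04 ± 0.212). HIF1A stayed first, while ADM moved from rank 6 to rank 2 and NDRG1 from rank 2 to rank 5. No neighbours in either order had overlapping ranges across their 4 libraries. These ranges cover variation among libraries only. The order also rests on the transcript length used for each gene, and other lengths were not tried.

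The wider set of HIF targets outside glycolysis, which includes 8 of the 10 genes, also held genes of both directions. Of 43 listed, 41 were in the table and 34 were tested, with 14 higher, 13 lower and 7 not called; the median was 0.02, and 2 rose and 5 fell at least 2-fold. Without the 10 genes, 11 were higher and 9 lower of 27 tested. The share called in the whole set, 79.4%, lay near the 77.3% of all genes tested, where 38.7% were higher and 38.6% lower. A change of at least 2-fold was called for 8.42% of genes tested. STC2, a secreted glycoprotein, had the largest fall, from 141 ± 5.16 to 28.7 ± 1.49 CPM (SD, n = 4; -2.29, edgeR adjusted p = 4.75e-55). DDIT4, which restrains mTORC1 under stress, fell from 301 ± 4.64 to 97.7 ± 2.97 CPM (-1.62), with 41.2% of its exon bases shared with another gene. Chosen after their values were seen, the oxidoreductase gene ERO1A rose from 49.7 to 146 CPM (1.56, edgeR adjusted p = 2.24e-49), and VLDLR (-1.07) and the repressor BHLHE41 (-0.99) fell. The hydroxylase gene P4HA1 (0.25) and the collagen-modifying PLOD1 (0.57) and PLOD2 (0.39) rose. ANGPTL4, LOX, STC1 and CA12, which respond strongly to hypoxia in many cells, were all below 0.1 CPM in both groups.

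Of 21 glycolytic targets, all tested, 15 were higher, 4 lower and 2 not called, beside 38.7% higher and 38.6% lower among all genes tested. Their median was 0.28, against -0.01 over all genes. PFKP rose from 278 ± 6.23 to 600 ± 14.1 CPM (SD, n = 4; 1.11), the lactate exporter SLC16A3 by 1.02, ENO2 by 0.98 and ALDOC by 0.96, the last from 1.77 ± 0.124 to 3.45 ± 0.859 CPM. The glucose transporter SLC2A1, a classical HIF-1 target, was at 199 and 195 CPM and did not pass the test (-0.03, edgeR adjusted p = 0.23). PDK1, which diverts pyruvate from mitochondria, fell from 57.2 ± 2.18 to 34.5 ± 0.912 CPM (-0.73).

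Published hypoxia signatures were read beside the same shares of all genes tested, 38.7% higher and 38.6% lower. In a 15-gene classifier for head and neck squamous carcinoma, 13 genes were tested, 5 were higher and 5 lower, close to those shares, and the median was -0.03. Its member ANKRD37 went from 0.519 ± 0.118 to 1.02 ± 0.123 CPM (SD, n = 4; 0.97, edgeR adjusted p = 0.00272; 35.2% of exon bases shared). In a 51-gene pan-cancer metagene, all 51 genes were tested, 36 were higher and 11 lower, and the median was 0.25. That list also holds genes of mitosis and cytoskeleton, such as ANLN (1.34), PSRC1 (1.10), SHCBP1 (0.93) and KIF20A (0.90), named here after their values were seen. Among genes that the deposited table annotates to the HIF-1 signaling pathway, 45 of 81 tested were higher and 24 lower (median 0.12). Of those annotated to the cellular response to hypoxia, 31 of 80 were higher and 34 lower (median -0.00), and of those annotated to the response to hypoxia, 52 of 109 were higher and 36 lower (median 0.09). The lists overlap each other and hold several of the 10 genes.

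**Figure D4:**
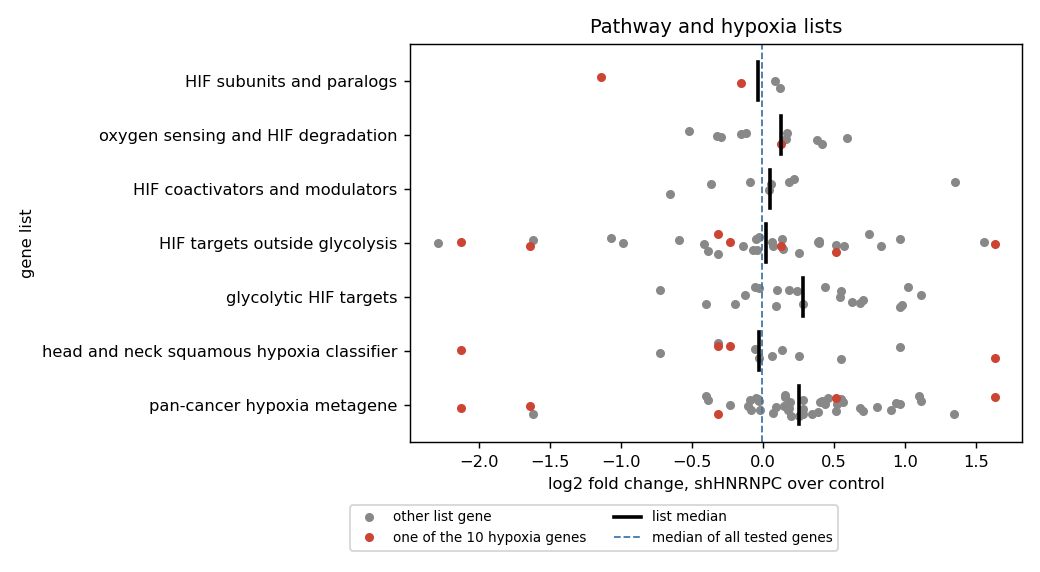
Log2 fold change of tested genes in 7 pathway and hypoxia lists, with a black line at each list median and a dashed line at the median of all genes tested. HIF targets outside glycolysis spread from -2.29 to 1.63 about a median of 0.02, while glycolytic targets have a median of 0.28.

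The genes whose log2 CPM followed NDRG1 most closely over the 8 libraries, among 10399 genes averaging 5 CPM or more in either group, included PDE2A and NOP53 (Pearson's r of at least 0.99 for each). For VEGFA they were PPP1R15A, LAMA3 and EPRS1, and for ADM they were NEDD4, FAM136A and LY6E. Such values were common: r was at least 0.99 for 7.18% of genes with NDRG1, 6.56% with VEGFA and 7.68% with ADM. The 8 libraries share depth and group, and no p is given.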

How the data were processed

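Poly(A) RNA libraries were sequenced as paired reads and trimmed of poor reads by fastp, per the labels and design text. The submitters' processing notes name hg38. Which aligner, counter, gene annotation and strand setting were used is not given in the sources here. The authors deposited raw read counts per gene and sample.

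Genes were kept with edgeR's filterByExpr (minimum count 10, total 15), scaled with TMM and tested with glmQLFit (robust) and glmQLFTest on group, over all 12001 genes kept, with Benjamini-Hochberg adjustment at 0.05. SE was taken as |log2 fold change| over the root of the F statistic. A prior count of 2 entered log2 CPM. Ratios within libraries added 0.5 to each count and used exact two-sided permutation tests. Tools were R 4.3.3, edgeR 4.0.16, DESeq2 1.42.0, Python 3.11.15 and scipy 1.17.1. The edgeR step was tested on simulated counts.

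No library repeated another: within groups, chi-square over its degrees of freedom ran from 2.66 to 3.70. Positions, transcript lengths and exon overlap came from GENCODE release 29. RefSeq promoters of 7 of the genes, matched by symbol, were used, and those of genes on chromosome 8 were not. VEGFA had no promoter in the set used.

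The 10 genes and all lists were chosen with earlier results of these data known; the annotation lists were added after the table was seen. Genes named from each list were the strongest called genes by size of change, at most 4, with a mean of 1 CPM or more in either group (if fewer than 2 were called, the 2 lowest p); others are named to complete a family or pathway and were chosen with their values known. Some items that the rule selects are not reported here.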

Additional observations from a re-analysis of the deposited data

Results flagged for a closer look

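Libraries that stood apart from the other 3 of their group were sought with Dixon's ratio at its 95% critical value in 110 groups of 4 values, and 6 were found, where chance alone gives about 1 in 20. HIF1A was 253 CPM in control replicate 3, against 243 to 244 CPM in the other controls. P4HTM was 27.4 CPM in control replicate 3, against 22.5 to 23.0 CPM. PDK1 was 54.0 CPM in control replicate 3, against 57.8 to 58.6 CPM. EGLN3 was 0.0355 CPM in shHNRNPC replicate 1, a single count, against 0 in the others, and the log2 ratio of EGLN1 to EGLN3 was 9.62 there against 11.49 to 11.70. The log2 ratio of BNIP3 to BNIP3L was -2.48 in shHNRNPC replicate 4, against -2.16 to -2.13 in the other knockdown libraries. Their causes were not tested.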

How the results depend on the processing

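Each of the 9 tested genes was refitted under 17 alternatives: RLE size factors, plain library totals, DESeq2, no count filter, a filter of 1 CPM in 4 libraries, no robust estimation, a replicate block, each library left out, and shHNRNPC libraries 1 and 4 or 2 and 3 left out. Of 153 such values, 152 kept their direction and side of the threshold; EGLN1 without shHNRNPC libraries 2 and 3 did not (0.10, edgeR adjusted p = 0.0822), and the cause was not tested. Leaving out single libraries gave 4510 to 4601 genes called higher and 4521 to 4577 called lower. For the other named genes, 664 of 678 values kept direction and call. CA2, ESAM and CALCRL lost their call in 13, and CSF1R, not called at -0.11, reversed to 0.049 without control replicate 1 (edgeR adjusted p = 0.826), in a range of -0.24 to 0.049 over single libraries left out. The log2 ratio of EGLN1 to EGLN3 ranged from -0.54 to 0.15 when single libraries were left out, and reversed to 0.15 without shHNRNPC replicate 1, which holds the only EGLN3 count. The HIF1A to EPAS1 difference ranged from 0.96 to 1.01; with 3 against 4 libraries no permutation p under 0.0571 is possible, so none is given. No pairing by replicate number was seen: deviations of same-numbered libraries correlated at -0.06 to 0.02, which cannot show that the samples were unpaired. The replicate block gave 4605 genes called higher and 4614 lower, with NDRG1 at -2.13 and ADM at 1.63. The block changed no call among the 9 genes. Depth limits EGLN3, which was not tested, and CA9, at 69 to 117 counts per library.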
